A study of Mus musculus with 6 samples.

Results

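Collagen chains were measured by 82 of the 45101 probe sets on the array, chosen because the platform annotation gives them a single symbol of the form Col, number, a, number. They stand for 42 genes of the 18194 with a probe set of their own. RNA of mouse cortex was hybridised to 6 Affymetrix arrays in 2 groups of 3, titled biological replicates. How many mice lie behind each is not in the labels, and the p-values speak only for the spread among the 3 arrays of a group. The TRAP group held RNA from translating ribosome affinity purification, which precipitates a tagged ribosomal protein with the mRNA on its ribosomes, here in line ES691, a bacterial artificial chromosome transgenic with S100a10 as driver. The unbound group held whole cortex RNA of the same line, called input in the titles and unbound, or flow-through, elsewhere. All 6 samples came from untreated animals backcrossed for 3 to 5 generations from FVB onto C57BL/6, with no age given in the labels. As the series text states, the S100a10 transgene also labels some cells that are not neurons, and the published list of probe sets it recommends was not used here.

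Collagens are secreted or membrane-bound proteins in which several alpha chains wind into a helix made of repeated glycine-containing units. Fibrillar collagens form the ropes of connective tissue, type IV collagens form the sheet of basement membranes, the FACIT class (fibril-associated collagens with interrupted helices) decorates fibrils, and transmembrane collagens sit in cell surfaces. In the brain, fibrils are largely kept to the meninges and the walls of larger vessels, while type IV collagen lines all vessels and the pial surface. In RNA of whole tissue or of a precipitate, fewer cells of a type and less RNA per cell cannot be told apart.

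A probe set was tested if the mean intensity of either group reached 50, a limit recommended in the series text, and a difference was called at a limma adjusted p under 0.05. Of the 82 collagen probe sets, 27 passed this filter, for 20 genes, and 55 stayed under 50 in both groups with group means from 3.50 to 47.3. In 16 of the 27 both groups reached 50, in 9 the TRAP group alone (33.3%) and in 2 the unbound group alone (7.41%), beside 4.17% and 9.72% of all tested probe sets. A probe set kept through 1 group had to differ, and all 9 kept through TRAP RNA alone are among those called higher. Among the 27, 14 were higher in TRAP RNA, 8 were lower and 5 were not called. Of all 22591 tested probe sets 20.6% were called higher and 47.7% lower, 68.3% in all. Differences of 2-fold or more that were also called numbered 9 higher and 5 lower, against 6.17% and 16.6% of all tested. In 15 of the 27 every TRAP array lay above every unbound array and in 9 below, against 23.2% and 51.8% of all tested. With 1 probe set per gene, 10 of the 20 genes were higher, 6 lower and 4 not called, against 23.2% higher and 45.6% lower of 12070 genes. At 2-fold or more 8 genes were higher and 3 lower, against 7.29% and 13.3%. With both group means required to reach 50, 16 collagen probe sets remained, of which 5 were higher and 6 lower, against 19.2% higher and 44.2% lower of 19452 probe sets. Without the filter all 82 members could be tested: 39 were higher (47.6%) and 29 lower (35.4%), beside 24.6% and 49.3% of all 45037 probe sets that are not controls. The median log2 fold change of the 82 was 0.02, that of the 45037 was -0.17 and that of the 22591 was -0.25. Centring arrays on their medians moved this last median by 0.44, so small differences can change sign with the scaling. Of all calls 30.2% were higher with the values as deposited, 63.5% after centring and 47.4% after quantile normalisation. After either, 5 collagen probe sets were lower, beside 5712 (centring) and 7853 (quantile) of all 22591. The 14 higher collagen probe sets stayed called higher after either. One of Col6a2 was added to them after either, and those of Col6a1 and Col22a1 after centring.

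Many calls rest on a very small spread. Of the 27 tested collagen probe sets, 74.1% held exactly the same intensity on at least 2 arrays of a group, beside 53.6% of all tested probe sets. Such repeated values lower the SD. A test against a 2-fold change (limma's treat) is given beside the plain one. It asks for a larger difference but rests on the same SD, so it does not remove this limit. It called 5 collagen probe sets higher and 5 lower, against 3.82% and 9.49% of all tested, and 4 collagen genes higher and 3 lower, against 4.6% and 6.74% of all genes. The higher ones belong to Col1a2 (2 probe sets), Col3a1, Col4a5 and Col13a1, and the lower ones to Col9a3 and Col19a1 (2 each) and Col4a1. All 5 higher ones passed the level filter through TRAP RNA alone, and both Col9a3 ones through unbound RNA alone. Such probe sets had to differ, so the shares of all tested are no like comparison for them. All 5 lower ones, and some of the higher, held repeated values. S100a10, the driver, averaged 14128 ± 1095 in TRAP RNA and 2430 ± 451 in unbound RNA (SD, n = 3 each), 5.86-fold higher with a limma adjusted p of 8.4e-05. A second S100a10 probe set was 7.08-fold higher and the other one stayed under 50 in both groups.

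**Figure D1:**
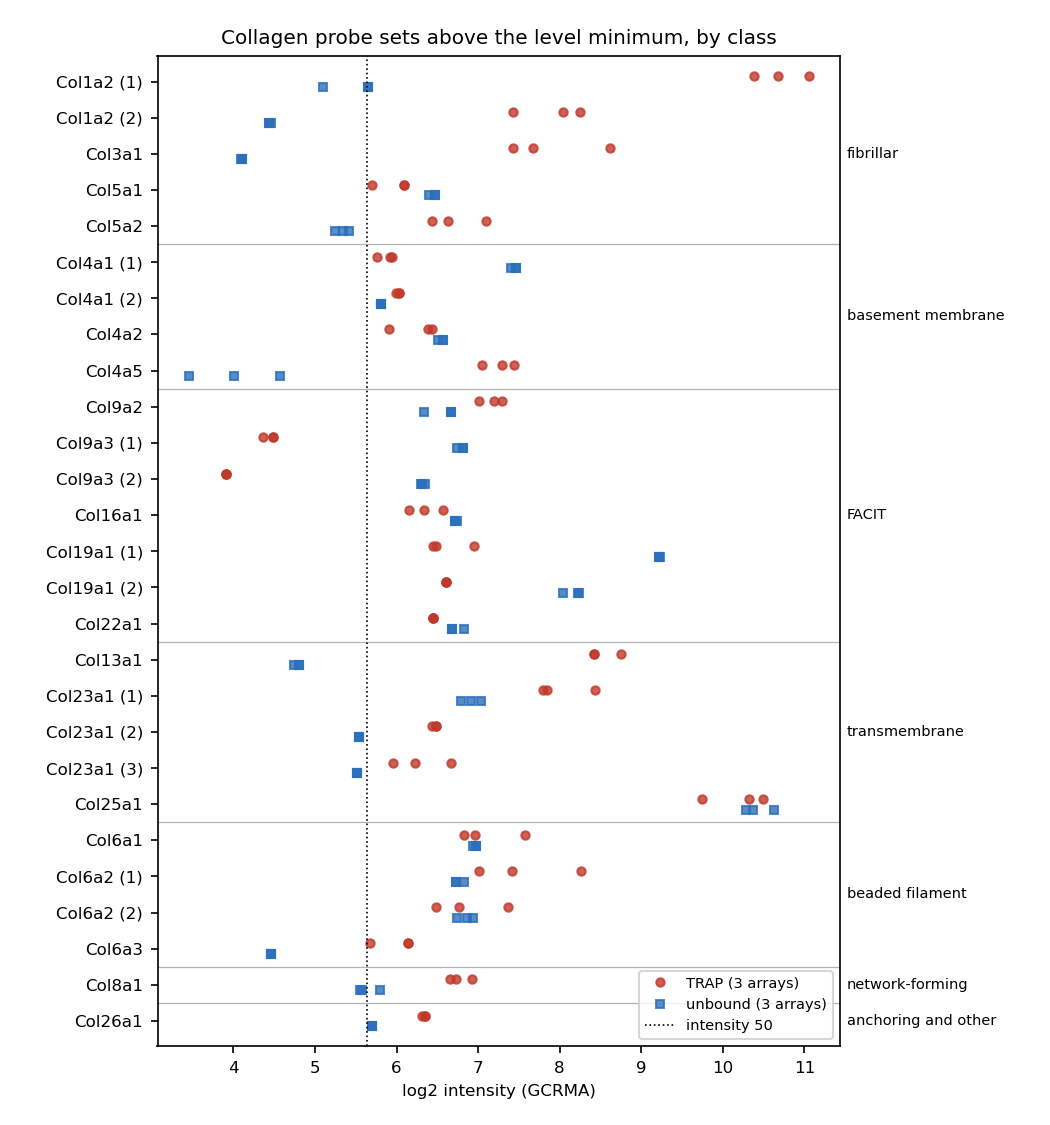
Log2 intensity of the 27 tested collagen probe sets on each array, grouped by class, with 3 TRAP arrays (circles) and 3 unbound arrays (squares) per row and a dotted line at an intensity of 50. Numbers in brackets tell probe sets of 1 gene apart. TRAP and unbound arrays lie farthest apart for Col1a2, Col3a1, Col13a1 and Col4a5, with TRAP above, and for Col19a1 and Col9a3, with TRAP below.

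Of 11 fibrillar collagen genes, all on the array, 4 had a tested probe set. Col1a2, Col3a1 and Col5a2 were higher in TRAP RNA and Col5a1 was lower. Col1a2, the second chain type of type I collagen, the main collagen of fibrous tissue, measured 1339, 2129 and 1634 on the TRAP arrays, against 34.2, 50.4 and 50.3 on the unbound arrays. The lowest TRAP array lay far above the highest unbound one. TRAP RNA held 37.7 times the unbound level (log2 difference 5.24, SE 0.24, adjusted p = 3.8e-05). Values below the limit have no firm size. Called folds over a group mean under 50 are therefore also given with every value under 50 set to 50 (floored). For Col1a2 this made 33.2-fold. A further Col1a2 probe set gave 173, 303 and 263 in TRAP RNA, against 21.6, 21.99 and 21.6 in unbound RNA (11.02-fold, adjusted p = 1.2e-04, floored 4.79-fold). The other probe set of the gene stayed near background in both groups, with no array above 6.34.

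Col3a1, the chain of type III collagen, which forms fine fibrils around vessels and in loose tissue, measured 204, 393 and 173 on the TRAP arrays, against 17.3, 17.3 and 17.0 on the unbound arrays. All 3 unbound values lay far under 50. The log2 difference of 3.80 (SE 0.33) made 13.97-fold, with adjusted p = 3.5e-04 and a floored value of 4.802-fold. Col5a2, a chain of type V collagen, which starts fibrils and sets their width, had TRAP values of 86.9, 136 and 99.3, against 38.1, 40.5 and 42.8 in unbound RNA. The groups did not overlap and the difference was 2.61-fold (log2 1.39, SE 0.18, adjusted p = 0.0017, floored 2.11-fold), but it did not pass the test against 2-fold (adjusted p = 0.26).

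Col5a1, the partner chain of Col5a2, went the other way in its tested probe set, with 51.8, 68.0 and 68.0 in TRAP RNA, against 88.6, 88.6 and 84.2 in unbound RNA. The log2 fold change was -0.49 (SE 0.12, adjusted p = 0.018), and the call was lost after centring (-0.05) and after quantile normalisation (-0.17). Without unbound replicate 1 or 2 the adjusted p was 0.058 or 0.059. Another Col5a1 probe set, under 50 throughout, read 26.6, 41.9 and 43.1 in TRAP RNA, against 14.03 on each unbound array. The other one, also under 50, lay below on the TRAP arrays like the tested probe set, with 8.9998, 9.22 and 9.44, against 16.4 on each unbound array. Whether the 2 chains differ in their fold change was not tested.

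Col1a1, the major partner of Col1a2 in type I collagen, was not tested because both its probe sets stayed under 50. They read 35.1, 47.1 and 37.4 in TRAP RNA, against 11.1 on all 3 unbound arrays, and 22.9, 23.2 and 23.2, against 8.53, 8.53 and 9.06. TRAP arrays lay above unbound arrays for both. Intensities of different probe sets cannot be set against each other, so the distance between Col1a1 and Col1a2 is no measure of their ratio. The other fibrillar genes under 50 were Col2a1, the collagen of cartilage, Col5a3, Col11a1, Col11a2, Col24a1 and Col27a1. Among them a Col11a1 probe set read 10.3, 10.4 and 10.6 in TRAP RNA, against 28.4, 28.4 and 28.7 in unbound RNA. The other Col11a1 probe set went the opposite way, with 9.75, 9.93 and 9.93 in TRAP RNA, against 6.27 on each unbound array.

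The sequence before the annotated gene start is shown for the 4 genes that passed the test against 2-fold upward, since a promoter is where their transcription begins. The sequences are from RefSeq (GRCm38.p6) and end just before the outermost annotated start of the gene, so fewer than 250 bases remain where the table's start lies inside the gene. Capitals mark the motifs searched on both strands: CCAAT, the box bound by NF-Y, TATAAA, the TATA box, and GGGCGG, the GC box. Col1a2 and Col3a1, both on the plus strand, have 250 bases each.
Col1a2 chr6:4505368-4505617: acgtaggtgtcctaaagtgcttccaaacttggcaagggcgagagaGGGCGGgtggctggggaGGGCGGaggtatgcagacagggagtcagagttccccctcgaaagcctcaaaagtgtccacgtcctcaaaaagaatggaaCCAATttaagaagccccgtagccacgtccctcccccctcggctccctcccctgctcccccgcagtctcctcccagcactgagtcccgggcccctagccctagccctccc
Col3a1 chr1:45311288-45311537: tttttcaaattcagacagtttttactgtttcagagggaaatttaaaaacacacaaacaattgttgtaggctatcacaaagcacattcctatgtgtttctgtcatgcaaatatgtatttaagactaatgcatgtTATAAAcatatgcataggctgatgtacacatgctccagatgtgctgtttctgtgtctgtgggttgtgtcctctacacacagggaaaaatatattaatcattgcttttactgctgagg

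The Col1a2 stretch held 1 CCAAT and 2 GGGCGG and the Col3a1 stretch 1 TATAAA. Over the same 250 bases of 32851 RefSeq promoters, 33.8% held CCAAT, 32.7% GGGCGG and 12.4% TATAAA on either strand. G and C made up 62.0% of the Col1a2 stretch and 35.2% of the Col3a1 stretch. Of 33 collagen genes with a promoter in the table, 13 held CCAAT, 20 GGGCGG and 5 TATAAA in at least 1 of their promoters. These are counts of genes and the shares are of single promoters, so they cannot be set against each other. A match is only these letters in this window.

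Of 6 basement membrane collagen genes 3 had a tested probe set, and they did not move together: Col4a5 was higher, Col4a1 was lower in the probe set with the higher mean, and Col4a2 was not called. Col4a5, a chain of the type IV network that joins Col4a6 in some basement membranes and Col4a3 and Col4a4 in others, measured 132, 156 and 174 on the TRAP arrays, against 10.9, 23.7 and 16.1 on the unbound arrays. Every TRAP array lay above every unbound array. The difference was 9.53-fold (log2 3.25, SE 0.31, adjusted p = 5.2e-04), floored 3.07-fold. A second Col4a5 probe set read 26.5 on every TRAP array, against 12.8, 13.7 and 12.8 on unbound arrays. The sequence before Col4a5, on the plus strand of the X chromosome, had 201 bases and 1 CCAAT. Over the first 201 bases of each promoter in the table, 28.6% held this motif. In other promoters that stretch need not end at the gene start.
Col4a5 chrX:141475169-141475369: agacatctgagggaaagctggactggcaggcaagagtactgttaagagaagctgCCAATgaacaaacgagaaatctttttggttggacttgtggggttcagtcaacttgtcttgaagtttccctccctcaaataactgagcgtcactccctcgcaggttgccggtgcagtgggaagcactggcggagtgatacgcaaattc

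Col4a1 and Col4a2, whose products form the most common type IV network and line brain vessels, gave a different picture. The brighter Col4a1 probe set measured 60.6, 61.7 and 54.2 in TRAP RNA, against 177, 177 and 170 in unbound RNA. That was 2.97-fold lower (log2 -1.57, SE 0.06, adjusted p = 1.9e-05), and it passed the test against 2-fold (adjusted p = 0.0014). The dimmer one measured 63.6, 65.4 and 65.4 in TRAP RNA, against 56.0 on each unbound array, a small difference in the opposite direction (log2 0.21, SE 0.02, adjusted p = 0.0012). It rests on arrays with an SD of 0 in the unbound group and did not pass the test against 2-fold. Col4a1 was the 1 gene, of 6 collagen genes with several tested probe sets, whose probe sets were called in opposite directions. Where each probe set lies in the transcript was not used here.

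Col4a2 measured 59.8, 83.6 and 86.6 in TRAP RNA, against 90.7, 95.1 and 95.1 in unbound RNA. The TRAP values all lay below the unbound values, but the log2 fold change of -0.31 (SE 0.16) was not called (adjusted p = 0.14), and it was 0.13 after centring. Without TRAP replicate 1 the log2 fold change was -0.14 and was called (adjusted p = 0.037). Col4a3 and Col4a4, the kidney and inner ear partners of Col4a5, stayed at group means under 50, as did Col4a6. The 2 Col4a6 probe sets read 20.6, 21.6 and 22.4 in TRAP RNA, against 7.63 on all unbound arrays, and 21.4, 23.2 and 21.5, against 15.97.

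**Figure D2:**
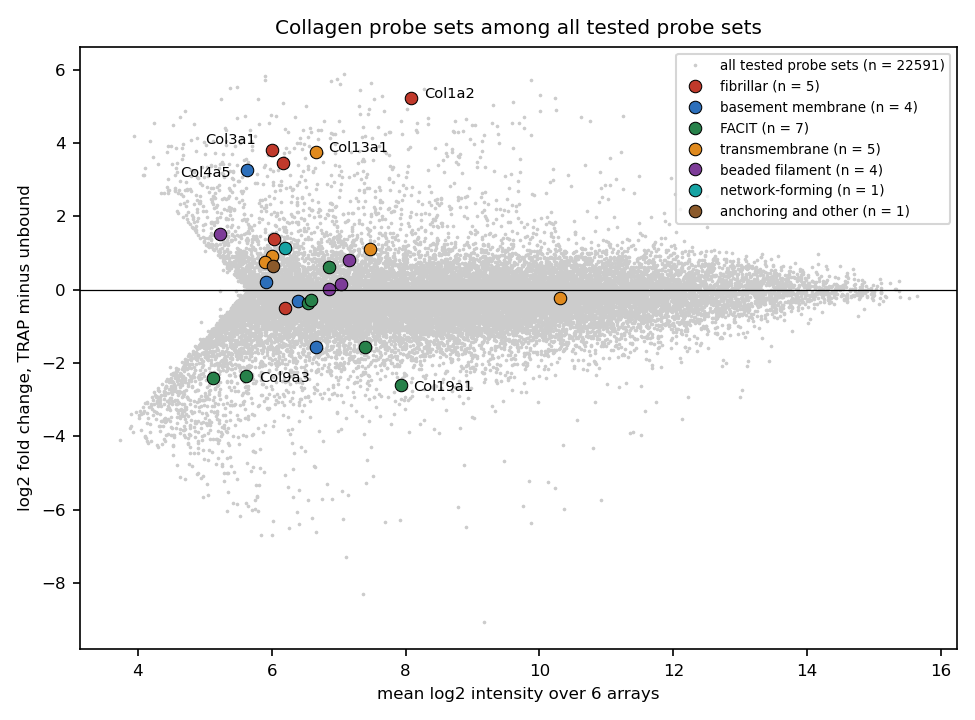
Log2 fold change (TRAP minus unbound) against mean log2 intensity over 6 arrays for 22591 tested probe sets in grey and the 27 collagen probe sets coloured by class. Col1a2 lies highest among the collagens at 5.24 and Col19a1 lowest at -2.60.

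With the values as deposited, FACIT collagens were mostly lower. Of 9 genes on the array 5 were tested, and Col9a3, Col16a1, Col19a1 and Col22a1 were lower in TRAP RNA while Col9a2 was higher. Of all genes, by their probe set with the highest mean, 45.6% were called lower and 23.2% higher. After centring Col16a1 was not called and Col22a1 was called higher, and after quantile normalisation neither was called. Only the lower calls of Col9a3 and Col19a1 held in both scalings. Col19a1, a minor collagen known from the mouse brain in subsets of interneurons, measured 87.6, 123 and 89.6 on the TRAP arrays, against 598, 600 and 598 on the unbound arrays. The groups were far apart, with a 6.05-fold lower TRAP level (log2 -2.60, SE 0.14, adjusted p = 7.6e-05). A second Col19a1 probe set read 97.6 on every TRAP array, against 300, 301 and 264 in unbound RNA (2.95-fold lower, adjusted p = 2.0e-05).

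Markers of interneurons were mostly lower as well. Of 8 tested interneuron genes 7 were lower and 1 was not called, against 45.6% lower of all genes. Their summed intensity ranged from 12623 to 15648 on TRAP arrays and from 33485 to 34485 on unbound arrays. Markers of other cells were also lower, with 9 of 9 oligodendrocyte lineage and 5 of 6 microglial genes. The part of interneurons in the Col19a1 difference was not tested.

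Type IX collagen, which coats the fibrils of cartilage, gave opposite calls for its chains. Col9a3 measured 20.5, 22.4 and 22.4 in TRAP RNA, against 107, 113 and 113 in unbound RNA. It was 5.09-fold lower (log2 -2.35, SE 0.05, adjusted p = 2.9e-06), floored 2.22-fold lower. A second Col9a3 probe set read 15.0 on every TRAP array, against 79.7, 81.7 and 79.0, 5.34-fold lower and floored 1.603-fold lower. Col9a2 measured 128, 147 and 157 in TRAP RNA, against 102, 80.5 and 102 in unbound RNA, a small difference without overlap (1.53-fold higher, adjusted p = 0.0098). The Col9a1 probe sets stayed under 50, with 19.6, 20.4 and 20.4 in TRAP RNA, against 37.3, 36.4 and 36.4 in the one with the higher mean. The difference between Col9a2 and Col9a3 was not tested.

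The other FACIT differences were small. Col16a1 had a log2 fold change of -0.37 (adjusted p = 0.033), which became 0.07 after centring. With the replicate number as a block its adjusted p was 0.055, and without TRAP replicate 3 or any 1 unbound replicate it lay between 0.085 and 0.090. Col22a1, a collagen of tissue junctions, had a log2 fold change of -0.28 (adjusted p = 0.0054), which turned to 0.16 after centring and was called there. Another Col22a1 probe set, under 50 throughout, went the opposite way, with 31.6, 34.2 and 34.2 in TRAP RNA, against 16.03 on each unbound array. In the remaining one, also under 50, the groups overlapped. Col12a1, Col14a1 and Col20a1 stayed under 50, and the FACIT probe set nearest to that limit, of Col12a1, read 19.9, 20.7 and 21.4 in TRAP RNA, against 41.9 on each unbound array. A further Col12a1 probe set lay above on the TRAP arrays, with 24.7, 25.3 and 25.6, against 18.1, 16.7 and 15.5. The remaining Col12a1 probe sets lay below on the TRAP arrays.

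Among transmembrane collagens, Col13a1 and Col23a1 were higher in TRAP RNA, Col25a1 was not called and Col17a1 stayed under 50. Col13a1, a collagen of cell adhesion sites, measured 343, 432 and 343 on the TRAP arrays, against 28.0, 26.7 and 28.0 on the unbound arrays. The groups lay far apart at 13.4-fold (log2 3.75, SE 0.10, adjusted p = 6.9e-06), floored 7.41-fold. The sequence before Col13a1, on the minus strand and printed 5′ to 3′ along that strand, had 152 bases and 1 TATAAA. Over the first 152 bases of each promoter, 7.38% held this motif, again in a stretch that need not end at the gene start.
Col13a1 chr10:61979207-61979358: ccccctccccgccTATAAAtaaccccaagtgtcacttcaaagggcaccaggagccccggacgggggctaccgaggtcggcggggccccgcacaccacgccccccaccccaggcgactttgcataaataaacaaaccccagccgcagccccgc

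Col23a1 had 3 tested probe sets, all higher in TRAP RNA. The one with the highest mean read 221, 346 and 230 in TRAP RNA, against 121, 132 and 111 in unbound RNA (2.16-fold, adjusted p = 0.0054). The others were 1.89-fold and 1.701-fold higher (floored 1.77-fold and 1.56-fold), each with 1 repeated value on all 3 unbound arrays, and the last lost its call without any 1 unbound replicate (adjusted p from 0.054 to 0.056). None of the 3 passed the test against 2-fold. Col25a1, a membrane collagen made by neurons, measured 861, 1440 and 1276 in TRAP RNA, against 1241, 1576 and 1327 in unbound RNA. Its groups overlapped and it was not called (log2 -0.24, SE 0.22, adjusted p = 0.38), with 0.20 after centring.

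Type VI collagen forms beaded filaments around cells and is built from Col6a1, Col6a2 and a further chain such as Col6a3. Col6a3 measured 70.5, 70.5 and 51.1 in TRAP RNA, against 22.002 on each unbound array (2.88-fold higher, adjusted p = 4.6e-04). Floored, it was 1.27-fold and not called (adjusted p = 0.089). Col6a1 measured 113, 190 and 125 in TRAP RNA, against 126, 126 and 123 in unbound RNA, overlapping and not called (log2 0.16, adjusted p = 0.53), with -0.067 without TRAP replicate 2. After centring it was called higher (log2 0.60, adjusted p = 0.043). Col6a2 measured 129, 307 and 171 in TRAP RNA, against 106, 113 and 106 in unbound RNA. These groups did not overlap, but the log2 fold change of 0.81 was not called (SE 0.33, adjusted p = 0.084), except after centring (adjusted p = 0.017), after quantile normalisation (adjusted p = 0.025) or without TRAP replicate 1 (adjusted p = 0.035). A second Col6a2 probe set, of the type that can cross-hybridise, gave overlapping groups and a log2 fold change of 0.02.

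Of the remaining classes, Col8a1, a network-forming chain of vessel walls and of the cornea, was higher at 106, 122 and 101 in TRAP RNA, against 47.0, 47.6 and 55.5 in unbound RNA (2.19-fold, adjusted p = 4.6e-04). Its partner Col8a2 just missed the level limit, with 45.4, 48.3 and 48.3 in TRAP RNA, against 7.47 on each unbound array. Col26a1 was 1.56-fold higher (adjusted p = 2.2e-05), with 79.4, 81.8 and 81.8 against an unbound value of 52.0 on all 3 arrays. Col15a1 and Col18a1, the vessel-associated multiplexins, stayed under 50, and a Col18a1 probe set read 23.1, 27.0 and 33.6 in TRAP RNA, against 7.87 on unbound arrays. Col7a1, the anchoring fibril chain of skin, and Col10a1, of growth plate cartilage, were also under 50.

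Several collagen genes lie next to each other in the genome, a property the choice of members did not use. RefSeq places 8 pairs of collagen genes with no other protein-coding gene between them. In the pair Col3a1 and Col5a2 both were higher in TRAP RNA. In the pair Col4a1 and Col4a2, which share a promoter region, log2 fold changes were -1.57 and -0.31. Col4a2 was not called, and the second Col4a1 probe set was called higher (log2 0.21). In the pair Col4a5 and Col4a6, also arranged head to head, Col4a5 was higher and Col4a6 untested. In the pair Col9a1 and Col19a1, Col19a1 was lower and Col9a1 untested, and in the pair Col6a1 and Col6a2 neither was called. The remaining pairs, Col4a3 with Col4a4, Col6a4 with Col6a5 and Col6a5 with Col6a6, held no tested probe set.

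The 3 TRAP arrays did not carry collagen RNA evenly. TRAP replicate 2 was the highest of the 3 in 15 of the 27 tested collagen probe sets (55.6%), beside 24.1% of all tested probe sets. In the 14 collagen probe sets called higher, replicate 2 exceeded the mean of the other two by a median of 0.29 on the log2 scale, against 0 over all tested probe sets. The excess was not seen in collagen genes alone. The same median was 0.55 for astrocyte markers, 0.41 for oligodendrocyte lineage, 0.30 for pericyte and smooth muscle, 0.25 for microglia, 0.24 for interneuron, 0.14 for meningeal fibroblast, 0.10 for endothelial, 0.03 for pyramidal neuron and -0.54 for choroid plexus and ependymal markers. In unbound RNA replicate 2 differed from the others by a median of 0 in the same 14 collagen probe sets. Leaving TRAP replicate 2 out, 10 collagen genes were called higher and 6 lower, the same counts as with all arrays.

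**Figure D3:**
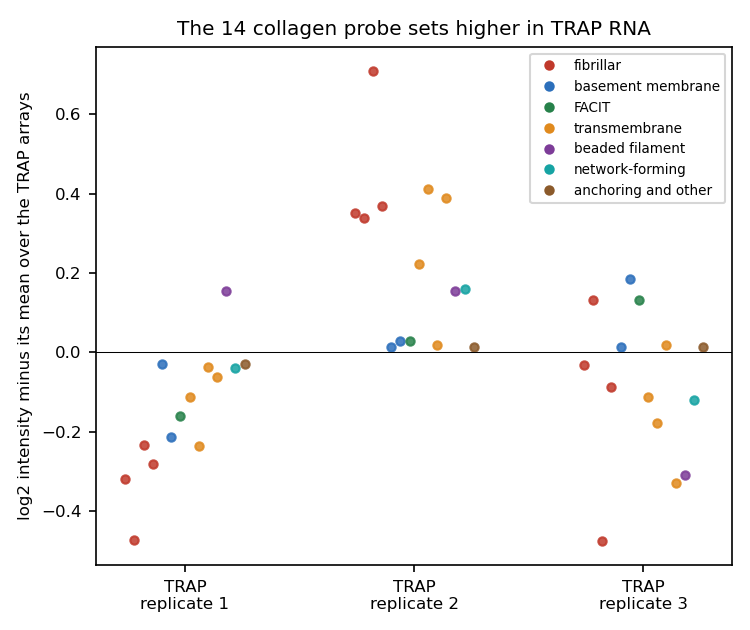
Log2 intensity of each of the 14 collagen probe sets called higher in TRAP RNA, minus its own mean over the TRAP arrays, for the 3 TRAP replicates and coloured by class. In replicate 2 all points lie above 0, with a median 0.29 above the other two replicates.

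Genes that act on collagen chains were counted from 5 lists ordered by role, with 45 genes on the array. Of 29 tested 12 were higher, 11 lower and 6 not called, beside 23.2% higher and 45.6% lower of all genes, and the median log2 fold change of the 29 was -0.07 against -0.21 of all genes. The other 16 stayed under 50, among them Lox, the lysyl oxidase, Plod1 and Plod2. Ppib, Serpinh1, Mia3, Tmem38b, Tgm2, Ddr1 and Adgrg1 are represented by probe sets of the types that can cross-hybridise. Of the genes called at 2-fold or more, Serpinh1, Mia3, Pxdn and Adgrg1 did not pass limma's treat against 2-fold (adjusted p = 0.070, 0.15, 0.20 and 0.70).

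Of 10 tested modifying enzymes and their partners, which hydroxylate prolines and lysines and add sugars, 3 were higher and 5 lower. These counts lie near the shares of all genes, 23.2% higher and 45.6% lower. Crtap, the helper protein of prolyl 3-hydroxylation, was 3.16-fold higher with 299, 367 and 272 in TRAP RNA, against 85.7, 108 and 102 in unbound RNA (adjusted p = 4.0e-04). P3h4, a partner of lysyl hydroxylation, was 1.79-fold higher and Ppib, a cyclophilin that works with Crtap, 1.51-fold higher. Ppib lost its call, with adjusted p between 0.069 and 0.083 when any of TRAP replicates 2 and 3 or unbound replicates 1 and 2 was left out. The prolyl 4-hydroxylase subunits P4ha1 and P4ha2 were 1.79-fold and 1.63-fold lower, and both calls were lost after centring (adjusted p = 0.074 and 0.21). P4ha2 also lost its call after quantile normalisation (adjusted p = 0.087) and without unbound replicate 3 (adjusted p = 0.054). The galactosyltransferase genes Colgalt1 and Colgalt2 were 1.54-fold and 6.25-fold lower. Colgalt1 was not called after centring (adjusted p = 0.066), and the floored Colgalt2 difference was 1.403-fold.

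In folding and secretion 3 of 7 were higher and 2 lower, against 23.2% and 45.6% of all genes. Serpinh1, the collagen chaperone, measured 308, 603 and 484 in TRAP RNA, against 33.1, 98.4 and 87.0 in unbound RNA. No values overlapped, with a 6.82-fold difference (adjusted p = 0.0063) that did not pass the test against 2-fold (adjusted p = 0.070). Sparc, a collagen-binding matrix protein, was 6.45-fold higher (adjusted p = 1.7e-04), at 1761, 2533 and 2040 in TRAP RNA, against 267, 340 and 372 in unbound RNA. Sec24d, a coat protein of the vesicles that carry collagen, was 1.58-fold higher, its partner Sec23a 1.58-fold lower and Mia3, which loads collagen into these vesicles, 2.61-fold lower.

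Propeptide cleavage genes split widely. Pcolce, the enhancer of procollagen C-proteinase, was 22.6-fold higher at 1770, 3428 and 2353 in TRAP RNA, against 79.9, 126 and 122 in unbound RNA (adjusted p = 1.7e-04). Adamts3, an N-propeptidase, was 5.71-fold lower at 49.4, 85.6 and 60.1 in TRAP RNA, against 359, 367 and 359 in unbound RNA (adjusted p = 3.2e-04). Pcolce2 was 3.84-fold lower (floored 1.48-fold), and Bmp1, the C-proteinase itself, was not called (log2 -0.17, adjusted p = 0.24).

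All 3 tested crosslinking genes were called, 2 higher and 1 lower, against 23.2% higher and 45.6% lower of all genes. Loxl1, a lysyl oxidase, measured 180, 190 and 180 in TRAP RNA, against 8.17, 8.77 and 8.77 in unbound RNA (21.4-fold, floored 3.67-fold, adjusted p = 3.9e-07). Tgm2, a transglutaminase, was 5.02-fold higher. Pxdn, the peroxidase that crosslinks type IV collagen, was 3.10-fold lower (adjusted p = 0.0039), at 152, 244 and 291 in TRAP RNA, against 658, 625 and 781 in unbound RNA.

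Of 5 tested collagen receptors, Ddr2, a receptor kinase for fibrillar collagen, was 3.66-fold higher (adjusted p = 3.9e-06), Mrc2, which takes up collagen for breakdown, 5.93-fold (floored 3.86-fold), and Itgb1, an integrin beta chain, 1.31-fold higher. Adgrg1, a receptor for type III collagen in the developing cortex, was 2.52-fold lower (adjusted p = 0.0074). Ddr1 was not called, with 2614, 5156 and 3336 in TRAP RNA, against 4491, 6255 and 5553 in unbound RNA (log2 -0.60, adjusted p = 0.12). With the replicate number as a block Ddr1 was called lower (adjusted p = 0.030).

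**Figure D4:**
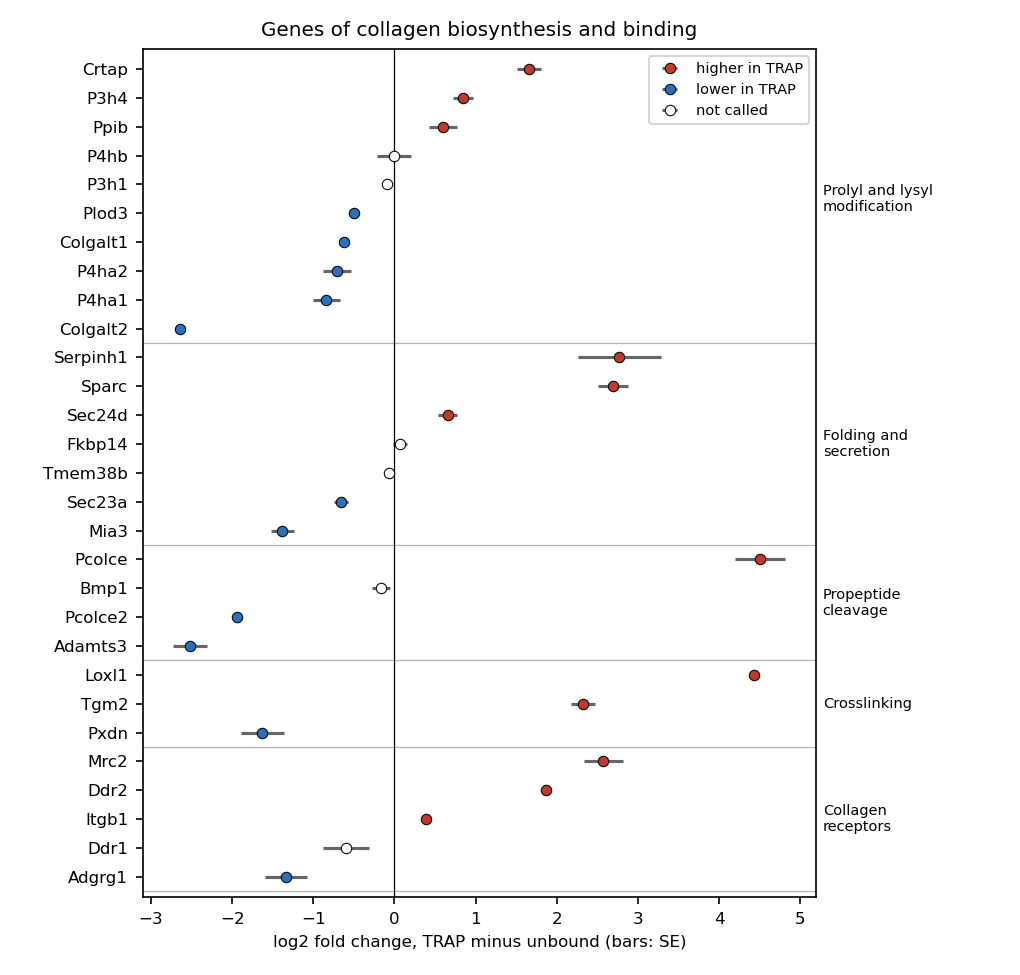
Log2 fold change (TRAP minus unbound) with its SE for the 29 tested genes of 5 collagen pathway lists, filled where called higher or lower and open where not called. Pcolce (22.6-fold higher) lies far to the right and Adamts3 (5.71-fold lower) far to the left. The points of Loxl1 and Colgalt2 rest on group means under 50, and their floored folds are 3.67 higher and 1.403 lower.

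Markers of cell types known to make collagen were counted beside these differences, and they did not all move one way. Among all genes 23.2% were called higher and 45.6% lower. The marker lists were chosen with earlier results of these data known, so their counts are no independent test. All 15 meningeal fibroblast markers were tested and higher, with a summed intensity of 49811 to 55755 on TRAP arrays and 2856 to 3401 on unbound arrays, led by Foxd1 (53.1-fold) and Foxc2 (44.5-fold, floored 41.1-fold). Of 15 pericyte and smooth muscle markers 9 were tested, of which 6 were higher and 2 lower. Their sum was 6033 to 7554 on TRAP arrays and 2920 to 3224 on unbound arrays. Myl9 and Vtn were 11.7-fold and 11.1-fold higher, Rgs5 and Mylk 4.66-fold and 1.94-fold lower, and Kcnj8, Abcc9, Higd1b, Myh11, Cnn1 and Des stayed under 50.

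Of 14 endothelial markers on the array 7 were tested, with 3 higher and 4 lower. Their sum was 5162 to 5696 on TRAP arrays against 1379 to 1587 on unbound arrays. Most of the TRAP sum was Itm2a alone, at 3928, 4268 and 4068, against 471, 465 and 465 on unbound arrays. Itm2a and Abcb1a were 8.74-fold and 3.79-fold higher, and Mfsd2a and Slco1c1 7.25-fold and 5.94-fold lower. Floored, these were 2.84-fold for Abcb1a, 3.63-fold for Mfsd2a and 4.99-fold for Slco1c1. The defining genes Pecam1, Cdh5, Flt1, Kdr, Tek, Tie1 and Emcn stayed under 50 in both groups. Of 10 cortical pyramidal neuron markers 3 were higher and 5 lower, shares near those of all genes. Their sum was 19313 to 20243 on TRAP arrays and 25915 to 28735 on unbound arrays. The sample titles name S100a10 cells of the cortex, and whether these genes mark them was not tested. Nrgn and Neurod6 were 1.58-fold and 1.38-fold higher, Bcl11b and Camk2a 4.14-fold and 2.84-fold lower. The part of each cell type in the collagen differences was not tested.

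Among the lists of other cells, 9 of 9 oligodendrocyte lineage genes and 5 of 6 microglial genes were lower, against 45.6% of all genes, while 4 of 9 astrocyte genes were lower and 3 higher, near the shares of all genes. Of 5 choroid plexus and ependymal genes 3 were higher and 1 lower.

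**Figure D5:**
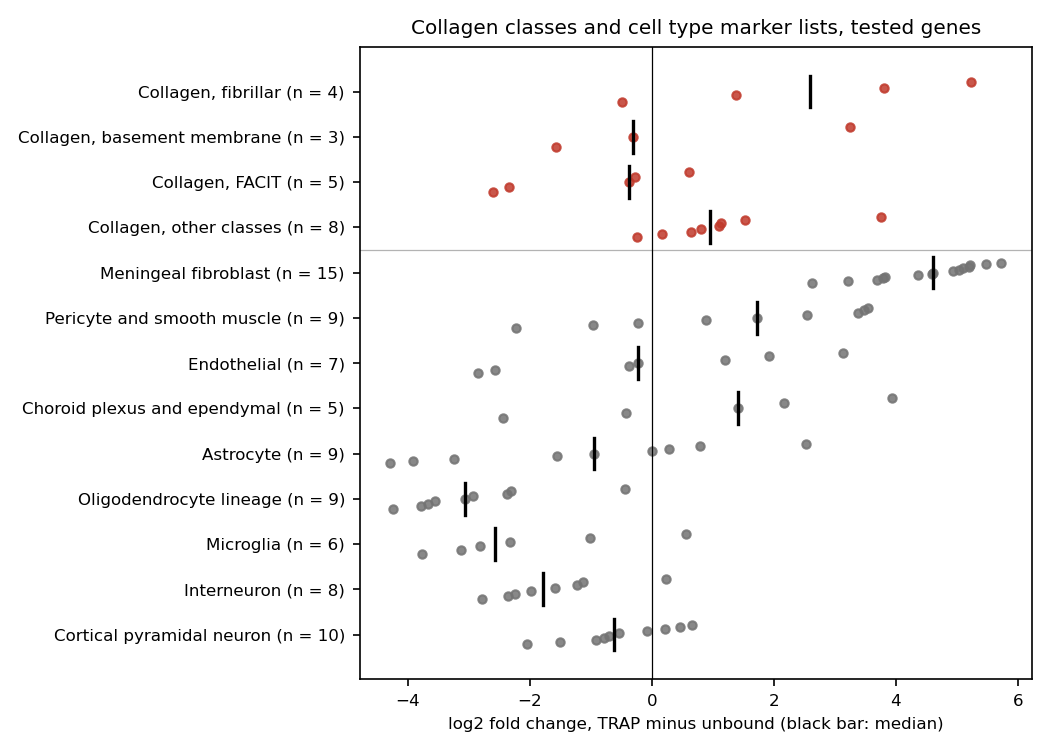
Log2 fold change (TRAP minus unbound) of tested genes in the collagen classes (upper rows) and in the cell type marker lists (lower rows), 1 point per gene, with the median as a black bar. Collagen classes spread over both sides of 0, while all 15 meningeal fibroblast markers lie to the right and all 9 oligodendrocyte lineage markers to the left.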

How the data were processed

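The authors deposited 1 intensity per probe set and array, on a linear scale and normalised by GCRMA, per the submitters' processing notes. Its version, and whether both groups were normalised in 1 run, are not given in the sources used here. Per the labels' protocols, 15 ng of RNA was amplified with a 2-cycle kit. All 6 value columns were used and 0 were left out.

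Of 45101 probe sets, 64 controls were removed, and 34958 have 1 symbol, 932 several and 9211 none. Log2 intensity, with no pseudocount, was compared between groups, two-sided and without covariates, by lmFit and eBayes of limma (version 3.58.1, under R version 4.3.3), and p-values were adjusted by Benjamini-Hochberg over the 22591 tested probe sets. Each adjusted p is from that fit unless another is named. A gene is represented by its brightest tested probe set, averaged over 6 arrays. The scripts were tested on simulated data. The number of arrays limits the precision. RefSeq (GRCm38.p6) matched 42 of 42 collagen genes by Entrez ID.

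Same-numbered TRAP and unbound samples deviated together from their group means (r from 0.37 to 0.45 over probe sets, against -0.31 to -0.10 for other numbers). Deviations within a group sum to 0, so the negative values are partly built in. The labels state no pairing. The main fit therefore leaves the numbers out, and the block is an alternative.

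Members and lists were chosen with earlier results of these data known. Named by rule were S100a10, tested fibrillar and basement membrane genes, other collagen genes called at 2-fold or with opposite probe sets, and the called genes with the largest folds per direction, up to 4 in each pathway list and up to 2 in each marker list. For marker lists of interneurons, oligodendrocytes, microglia, astrocytes and choroid plexus this naming was not done. Counts and replicate 2 medians are given for them, and for interneurons also a sum. Other genes were named after their values were seen. Alternatives were other filters, scalings, probe set choices, the block and fits without 1 array.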

Additional observations from a re-analysis of the deposited data

How the results depend on the processing

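Collagen genes called numbered 10 higher and 6 lower, and 14 and 8 probe sets. Without 1 array they ranged from 10 to 11 and 4 to 7 genes, and from 13 to 15 and 6 to 9 probe sets. Over the same fits fibrillar genes stayed at 3 higher, with 0 to 1 lower, basement membrane genes at 1 higher with 1 to 2 lower, and pathway genes at 11 to 13 higher and 10 to 13 lower. When both group means had to reach 50, which leaves 16 of 27 probe sets, 5 were higher and 6 lower, or 4 and 5 genes, so that the balance turned. In that fit 0 fibrillar and 0 basement membrane genes were higher. With no filter 39 probe sets were higher and 29 lower, or 19 and 16 genes, with 6 and 3 fibrillar, 3 and 2 basement membrane, and 19 higher pathway genes. Centring left 5 probe sets, 3 genes, 0 fibrillar and 7 pathway genes lower, and quantile normalisation 5 probe sets, 3 genes and 0 fibrillar genes lower. Of all 22591 probe sets 5712 were lower after centring and 7853 after quantile normalisation. The 14 higher collagen probe sets stayed called higher after either. Of all calls 30.2% were higher as given, 63.5% after centring and 47.4% after quantile normalisation, with 9928 and 7083 higher probe sets in place of 4663. Against 2-fold, 5 probe sets each way passed, with 4 genes higher and 3 lower, 0 fibrillar lower, and 7 higher and 3 lower pathway genes. Of the 22591 probe sets 3007 passed against 15430. On the 7 collagen probe sets without repeated values 5 were higher and 0 lower, likewise for genes, with 0 fibrillar and 0 basement membrane lower, and 7 higher and 5 lower pathway genes. That limit left 10475 probe sets and 5920 calls. With no filter 33289 were called. Signs turned after centring for Col25a1 (0.20), Col22a1 (0.16), Col16a1 (0.066) and Col4a2 (0.13), and after quantile normalisation for Col22a1 (0.0058). Without 1 array the log2 fold change of Col6a1 ranged from -0.067 (without TRAP replicate 2) to 0.31, and that of the second Col6a2 probe set from -0.22 (without TRAP replicate 2) to 0.22, with -0.029 without unbound replicate 1. The cause of these changes was not tested beyond the number of probe sets each setting leaves. With the replicate block the counts were 10 genes higher and 5 lower, Col16a1 being the 1 collagen call lost, and 14 and 7 probe sets. Of pathway genes 12 were then higher and 12 lower, with Ddr1 added (adjusted p = 0.030), and of marker genes Slc1a3 and Slc17a7 were added as lower (adjusted p = 0.022 and 0.037). In limma fits that called 0 of a group, 0 also passed at an unadjusted p under 0.05, except the fibrillar lower count, where 1 did without unbound replicate 1 or 2. Values near background have no measured size, so folds against them depend on the limit of 50.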
